A study of Danio rerio with 44 samples.

Results

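The claudins of the tight junction were followed in whole zebrafish embryos exposed to 3 perfluoroalkyl compounds. Every gene in the count table whose zebrafish symbol begins with cldn was taken, apart from cldnk and the symbols beginning with cldnd. This gave 38 of the 25859 genes in the table, and 36 of them passed the filter on low counts. The other 2, cldn10e and cldn18, averaged 1.05 and 1.46 deposited counts per library and were not tested.

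The embryos were of the wild-type genotype and were exposed for 72 h, between 24 and 96 h after fertilization. The compounds were perfluorobutane sulphonamide (FBSA), perfluorooctane sulphonate (PFOS) and perfluoroethylcyclohexane sulphonate (PFECHS), each at concentrations of 0.001, 0.1, 1 or 5 mg/L. Each compound had its own solvent control, which its 4 concentrations share, and every group carried 0.1% DMSO. A library was made from a pool of 20 embryos, and there were 3 libraries per group except at 0.1 mg/L FBSA, which had 2, so that 44 libraries in 15 groups were compared. The labels do not say whether the pools of a group came from separate clutches, so the tests measure how far these pools vary.

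Claudins are membrane proteins that join neighbouring epithelial or endothelial cells in the tight junction. Some close the space between cells to ions and solutes, and others form pores that let chosen ions or water pass, so the mix of claudins sets how leaky a tissue is. Fish have many more claudin genes than mammals, and in the zebrafish embryo they line the skin, gut, kidney tubule, inner ear, brain vessels and other epithelia. The upper-case symbols below are those of the name table. It gives 6 of the 38 genes a symbol that they share with another, namely a pair each for CLDN5, CLDN10 and CLDN11, and these are told apart by their Ensembl ids.

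The libraries held between 24478738 and 36533705 deposited counts, so 1 count was worth 0.0275 to 0.0428 on the counts-per-million (CPM) scale, which sets a count against the scaled library total. CPM is used here for levels of one gene between libraries, and levels of different genes are not compared because no gene lengths were used. Some libraries stood apart. The main axis between libraries, which held 29.2% of the variance over all genes, had its lowest scores in FBSA libraries, at -66.9 and -65.9 in replicates 3 and 1 at 5 mg/L and at -67.3 in solvent control replicate 3. Replicate 2 at 5 mg/L scored 31.1 and FBSA control replicates 1 and 2 scored 48.8 and 54.3, so this axis divided the FBSA groups within themselves.

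At 5 mg/L FBSA, 3 claudins rose and none fell. They were cldn7a (ENSDARG00000036376), a claudin of many epithelia, CLDN5 (ENSDARG00000014059), one of a pair named after the endothelial claudin of the blood-brain barrier, and CLDN11 (ENSDARG00000020031), one of a pair named after the mammalian claudin of myelin and testis. The 3 were 8.33% of the 36 claudins tested, against 11.2% of all 22703 genes called in either direction, 5.79% of genes called higher and 5.44% called lower. A call was an adjusted p under 0.05 in edgeR's quasi-likelihood test, with the Benjamini-Hochberg adjustment over all genes tested. In these pools of whole embryos, more or fewer cells of a type cannot be told apart from more or less RNA per cell.

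cldn7a had 64.5, 96.1 and 115 CPM at 5 mg/L FBSA, against 31.8, 25.1 and 33.3 CPM in the FBSA controls. All 3 exposed libraries lay above all 3 controls. The difference was 1.61 ± 0.26 on the log2 scale (SE, 95% interval 1.09 to 2.14), or 3.06-fold, with adjusted p = 0.000415 (edgeR).

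CLDN5 (ENSDARG00000014059) had 18.5, 21.2 and 25.4 CPM at 5 mg/L FBSA, against 13.5, 11.7 and 14.7 CPM in the controls. The groups did not overlap here either, although the change was smaller. It was 0.71 ± 0.17 log2 units (0.37 to 1.05), or 1.63-fold, with adjusted p = 0.00743 (edgeR).

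CLDN11 (ENSDARG00000020031) had 11.6, 40.1 and 50.5 CPM at 5 mg/L FBSA, against 13.5, 13.3 and 9.66 CPM in the controls. Replicates 2 and 3 were far above the controls, while replicate 1 lay among them, so the groups overlapped. The fitted difference was 1.49 ± 0.35 log2 units (0.77 to 2.201), or 2.80-fold, with adjusted p = 0.00765 (edgeR). The other gene of the CLDN11 pair, ENSDARG00000030723, stood at 20.8 to 21.8 CPM against 17.7 to 20.8 CPM and was not called.

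**Figure D1:**
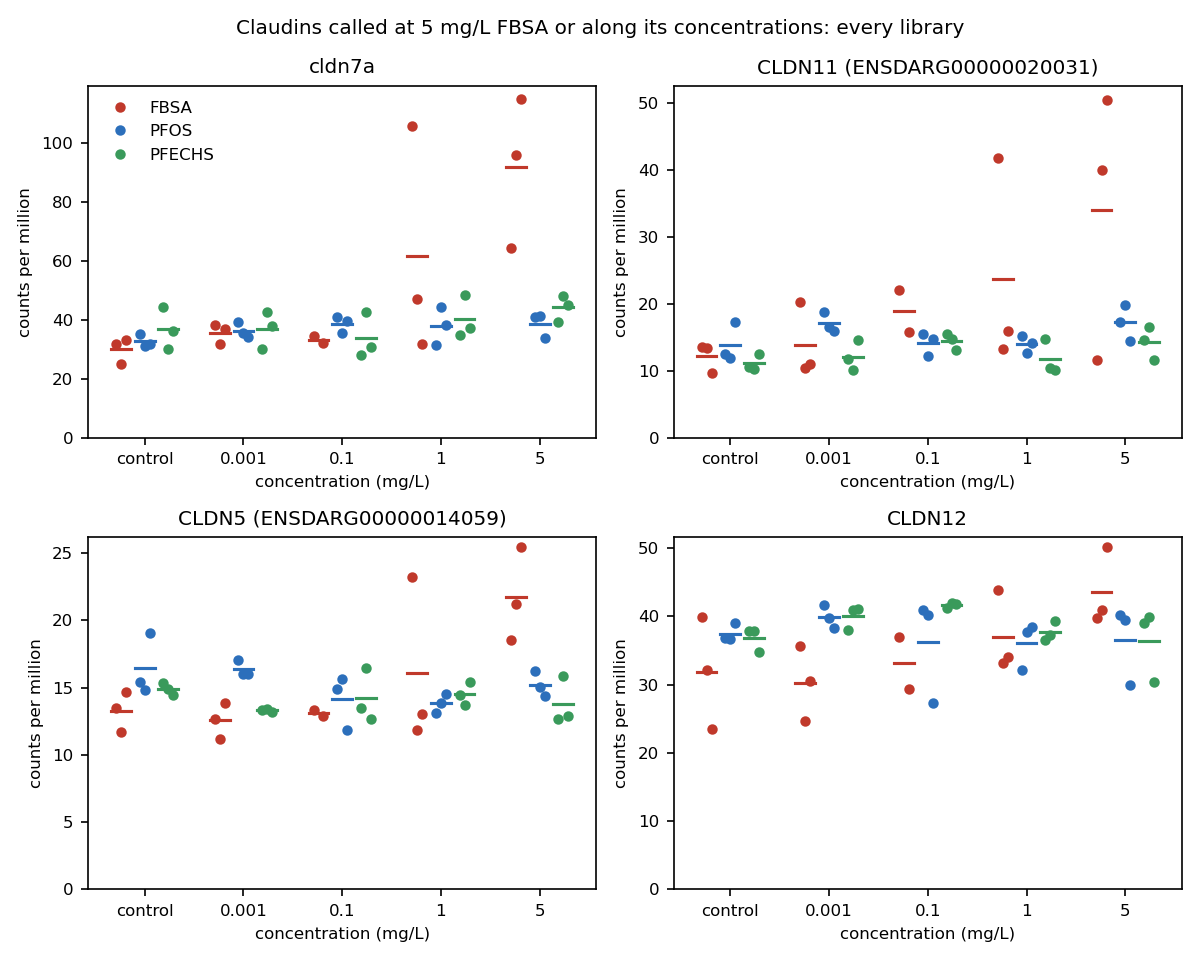
CPM of the claudins called in the FBSA series, by concentration (mg/L) and compound, with 1 point per library and a bar at the group mean. At 5 mg/L FBSA, cldn7a stands at 64.5 to 115 CPM, above its controls at 25.1 to 33.3 CPM, while the PFOS and PFECHS libraries stay near their own controls.

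The number of claudins called at 5 mg/L FBSA depended on single libraries. Without replicate 3 at 5 mg/L it was 1, cldn7a, and without replicate 2 it was 8, which then included 4 called lower, cldn33b, cldn15la, cldn15lb and the other CLDN5 gene. Without FBSA control replicate 3 it was 5. The share of all genes called in these fits is not given here, so the counts do not set claudins apart from other genes. cldn7a was called in each of the 6 fits that left out a library of this comparison, with log2 differences of 1.42 to 1.80. CLDN11 was lost without replicate 3 at 5 mg/L (adjusted p = 0.147, edgeR), and CLDN5 was lost without that library (0.113) or without FBSA control replicate 2 (0.0724). When the fit held the FBSA libraries alone, none of 35 claudins and none of 22344 genes was called, although 4 claudins had an unadjusted p under 0.05. The differences kept their size there, at 1.62 for cldn7a, 1.49 for CLDN11 and 0.72 for CLDN5.

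Several other claudins differed at 5 mg/L FBSA by amounts that did not pass the test in the edgeR fit reported here. CLDN12 (ENSDARG00000003927) had 39.7, 40.9 and 50.2 CPM against 39.96, 32.1 and 23.5 CPM in the controls, a difference of 0.45 ± 0.16 log2 units (0.13 to 0.78) with adjusted p = 0.0615. Its groups overlapped through control replicate 1, and it was called higher by DESeq2 (adjusted p = 0.0327) and with median-ratio scaling (0.0487) or the stricter filter on low counts (0.0427). cldn33b, a gene near the detection limit, had 0.111, 0.545 and 0.0353 CPM against 0.858, 0.774 and 0.385 CPM, a difference of -1.48 ± 0.53 (adjusted p = 0.0627). It was called lower by DESeq2 (adjusted p = 0.0401). cldn23l was lower in every exposed library (2.25, 1.70 and 1.45 CPM) than in every control (2.36, 2.75 and 2.34 CPM), and its difference was -0.47 ± 0.26 (adjusted p = 0.239).

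cldn15la, a claudin of the zebrafish intestine whose mammalian relative forms a pore for sodium, had 7.07, 19.5 and 5.05 CPM at 5 mg/L FBSA against 43.5, 51.7 and 9.85 CPM in the controls. Its groups overlapped because replicate 2 at 5 mg/L, at 19.5 CPM, lay above control replicate 3, at 9.85 CPM. The difference was -1.73 ± 0.70 log2 units (-3.16 to -0.30, adjusted p = 0.102), and that of cldn15lb was -1.17 ± 0.60 (adjusted p = 0.196). Without replicate 2 at 5 mg/L both were called lower, with differences of -2.53 and -1.94.

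Over all 36 tested claudins the median log2 difference at 5 mg/L FBSA was -0.01, as over all genes, with 18 claudins above 0 and 18 below. Claudins whose mammalian relatives seal the junction had 2 of 8 called higher, CLDN5 and CLDN11, and a median of 0.14, against 5.79% of all genes called higher. With 8 genes this count cannot be set apart from that share, and both calls were lost without replicate 3 at 5 mg/L. Claudins whose mammalian relatives form pores (CLDN2, the CLDN10 group and the cldn15 group) had none of 9 called and a median of -0.70, against 11.2% of all genes called in either direction. That median is limited by scarce genes. CLDN10 (ENSDARG00000058937), cldn10d and cldn10l2 never reached 1 CPM and differed by -1.10, 0.41 and -0.81. The median is the value of cldn15b, which had 0.405, 0.575 and 0.247 CPM at 5 mg/L FBSA. A list of lettered claudins of fish, which also held cldn3c and cldn3d, had none of 9 called and a median of 0.12. Both cldn3c and cldn3d are on the sealing list too. Several claudins are on none of these lists, among them cldn7a, cldn7b, CLDN12 and CLDN8. Besides the 3 called, 3 more claudins had an unadjusted p under 0.05, so that 6 of 36 did, against 28.1% of all genes. Claudins whose 3 exposed libraries all lay above the 3 controls numbered 2, cldn7a and CLDN5, against 8.07% of all genes, and 1, cldn23l, lay below, against 9.27%.

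**Figure D2:**
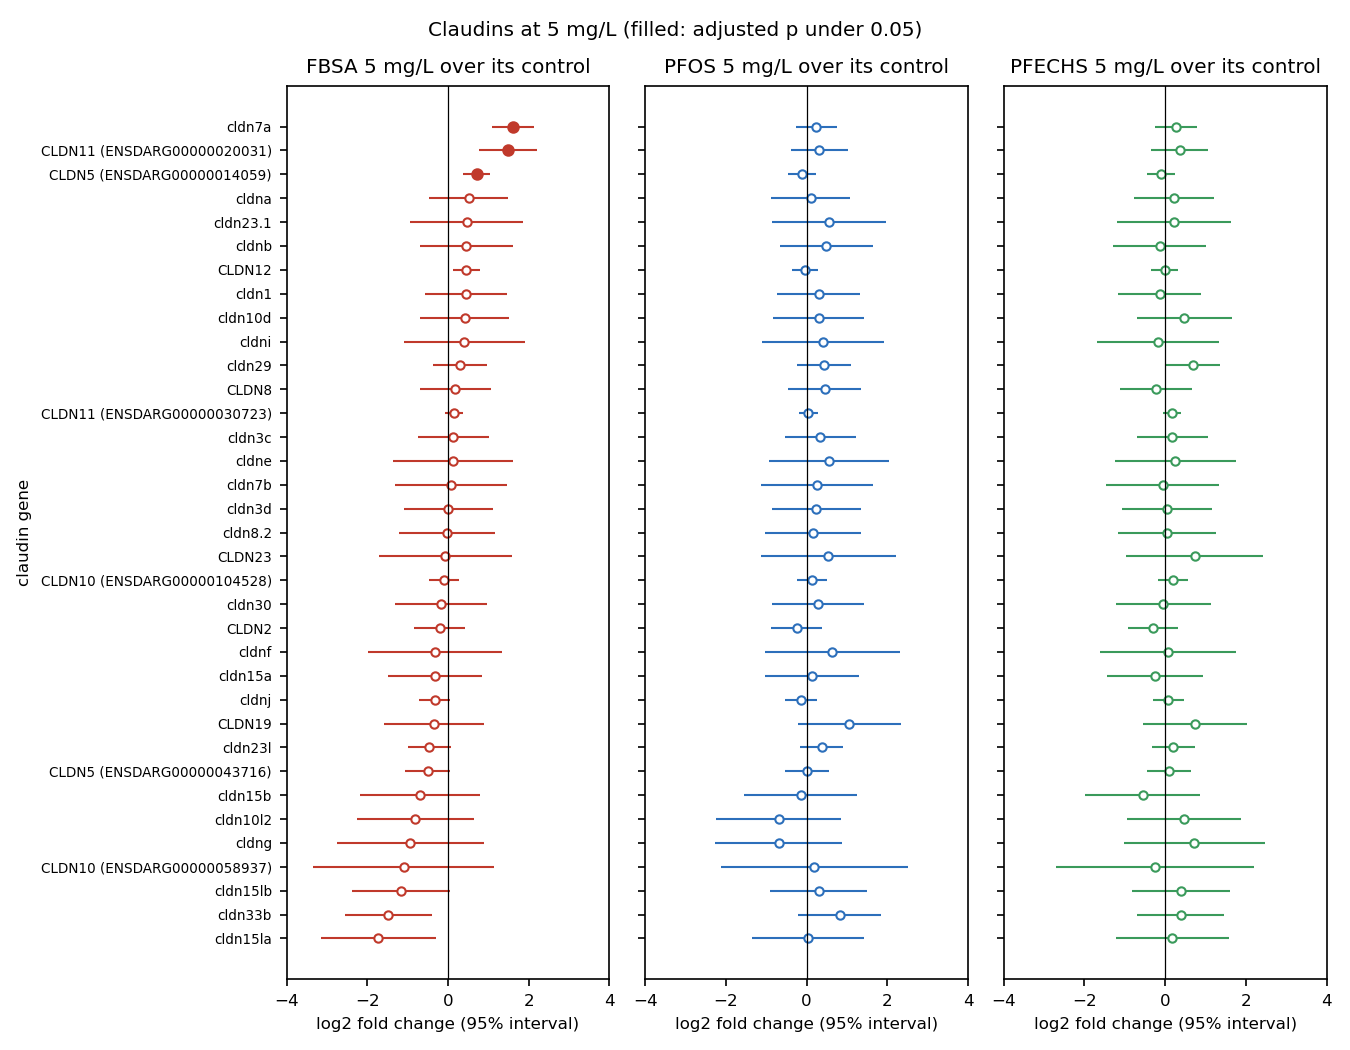
Fitted log2 difference from the own solvent control at 5 mg/L of each compound, for 35 of the 36 tested claudins (cldn26, which has almost no counts, is not drawn), with lines for the 95% interval and filled points for adjusted p under 0.05. Only cldn7a, CLDN5 and CLDN11 in the FBSA column are filled, at 1.61, 0.71 and 1.49.

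Some members were too scarce to be followed. cldn26, cldng, CLDN10 (ENSDARG00000058937), cldn10d and cldn10l2 passed the filter with means of 1.51, 5.27, 5.59, 6.5 and 8.38 deposited counts per library, and none of the 5 reached 1 CPM in any library. The other CLDN10 gene, ENSDARG00000104528, was steady at 5.15 to 9.83 CPM over the 44 libraries. CLDN8, whose mammalian relative seals the distal kidney tubule, ranged between 0.703 and 2.90 CPM.

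Along the FBSA concentrations 4 claudins rose and none fell, 11.1% of the 36 against 11.2% of all genes called and 5.61% called higher. The trend is the slope of log2 level over 5 equally spaced levels, with the control as the lowest and 5 mg/L as the highest. cldn7a rose by 0.40 ± 0.06 log2 units per step (adjusted p = 7.5e-05), CLDN11 (ENSDARG00000020031) by 0.37 ± 0.08 (0.00248), CLDN5 (ENSDARG00000014059) by 0.18 ± 0.04 (0.00263) and CLDN12 by 0.12 ± 0.04 (0.0282), all with edgeR. The slope of cldn15la was -0.40 ± 0.16 and missed the threshold (adjusted p = 0.0936). The first 3 kept their calls in each of the 14 fits that left out 1 FBSA library, whereas CLDN12 kept its call in 9 of 14. It lost it without replicate 3 at 5 mg/L (adjusted p = 0.169), replicate 1 at 1 mg/L (0.0503), replicate 2 at 0.001 mg/L (0.0511) or control replicate 2 or 3 (0.0773 and 0.0986).

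Below 5 mg/L FBSA no claudin was called by edgeR at any concentration, and 0.0% of all genes were. DESeq2 called 1, cldn7a at 1 mg/L (adjusted p = 0.0489). cldn7a had 31.8, 25.1 and 33.3 CPM in the controls, 38.2, 31.6 and 36.9 CPM at 0.001 mg/L, 34.6 and 32.0 CPM at 0.1 mg/L and 106, 47.2 and 31.7 CPM at 1 mg/L. Replicate 1 at 1 mg/L was thus among the highest of all 44 libraries, while replicate 3 lay among the controls. The same library was high in CLDN11 (ENSDARG00000020031), with 41.8 CPM beside 13.3 and 16.0 CPM in its group, and in CLDN5 (ENSDARG00000014059), with 23.3 CPM beside 11.8 and 13.0 CPM.

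At 1 mg/L FBSA the difference of cldn7a was 1.04 ± 0.25 log2 units (0.52 to 1.55) with adjusted p = 0.301, and that of CLDN11 was 0.96 ± 0.35 (0.26 to 1.67) with adjusted p = 0.543. Without replicate 3 at 1 mg/L, cldn7a was called by edgeR at 1.35 (adjusted p = 0.0134), so that 1 claudin was called below 5 mg/L. Unadjusted p-values under 0.05 were found for 1 claudin at 0.001 mg/L (1.14% of all genes), for 2 at 0.1 mg/L (3.22%) and for 3 at 1 mg/L (6.6%). CLDN2, whose mammalian relative forms a pore for cations and water, was among them at 0.1 mg/L, with 7.96 and 7.10 CPM against 11.7, 9.77 and 18.4 CPM in the controls. cldn26 was among them at 0.001 and 1 mg/L, with a mean of 1.51 counts per library that does not bear a fold change.

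PFOS gave no called claudin at any of the 4 concentrations or along the trend with edgeR. Among all genes, 0.0%, 0.0176%, 0.00881% and 0.0132% were called from the lowest to the highest concentration (at 1 mg/L 0.0044% higher and 0.0044% lower), and 0.348% along the trend. DESeq2 likewise called no claudin at any concentration or along the trend. Claudins with an unadjusted p under 0.05 numbered 0, 1, 1 and 0 in the order of the concentrations and 1 along the trend, against 6.77%, 15.1%, 7.88%, 7.98% and 8.94% of all genes.

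The claudins that rose with FBSA were close to their controls at 5 mg/L PFOS. cldn7a had 41.0, 41.3 and 33.7 CPM against 35.2, 31.0 and 31.9 CPM, a difference of 0.24 log2 units (-0.27 to 0.76). CLDN5 (ENSDARG00000014059) had 16.2, 15.0 and 14.3 CPM against 15.4, 14.8 and 19.03 CPM, a difference of -0.11 (-0.45 to 0.23). CLDN11 (ENSDARG00000020031) had 17.3, 19.8 and 14.5 CPM against 12.4, 11.9 and 17.3 CPM, a difference of 0.31 (-0.39 to 1.02). In all 3 genes the exposed and control libraries overlapped. The upper ends of the 3 intervals lie below the estimates for 5 mg/L FBSA, but this leaves out the error of those estimates. For CLDN11 the intervals at 5 mg/L FBSA and at 5 mg/L PFOS overlap. The direct tests between the compounds are given below.

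The smallest p-values at 5 mg/L PFOS belonged to CLDN19, whose mammalian relative serves the kidney tubule and the retinal pigment epithelium, and to cldn33b, cldn23l, cldn29 and CLDN8. CLDN19 had 3.06, 2.098 and 8.24 CPM against 2.00, 1.89 and 2.54 CPM, and its difference of 1.06 log2 units (-0.21 to 2.33) rested on replicate 3. cldn33b differed by 0.82 ± 0.50 there and by 1.08 ± 0.50 at 1 mg/L (unadjusted p = 0.0396, adjusted p = 0.611). CLDN2 had 10.3, 11.9 and 7.77 CPM at 0.1 mg/L PFOS against 16.7, 18.6 and 12.2 CPM, a difference of -0.67 ± 0.31 (unadjusted p = 0.0386, adjusted p = 0.315).

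The lowest PFOS concentration showed many small differences of one direction and no call. At 0.001 mg/L, 16 of 36 claudins (44.4%) were higher in all 3 exposed libraries than in all 3 controls, against 16.4% of all genes, and 1 claudin, cldn10l2, was lower in all 3, against 15.0%. Those higher included the skin and lateral line claudin cldnb, and also cldn7b, cldne, cldna, cldn29, cldn15a, cldn15la, cldn15lb and CLDN19. cldn15la had 48.1, 37.8 and 47.9 CPM against 23.2, 14.9 and 29.5 CPM, but with the spread of all 44 libraries its difference was 0.99 ± 0.68 log2 units (adjusted p = 0.617). Many claudins moved together over the libraries (14 of 35 had r above 0.7 with cldni), so these 16 are not separate signs. The main axis also divided these groups, with scores of 32.0, 24.9 and 42.8 against -22.9, -42.6 and -0.03 in the controls. Its part in the claudin levels was not tested.

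The median over the tested claudins at 0.001 mg/L PFOS was 0.38 log2 units, against 0.02 over all genes, and 28 of 36 were above 0, against 52.8% of all genes. The summed levels of several gene lists differed in these libraries too. The summed level of 33 enterocyte genes was 1651 to 2065 CPM at 0.001 mg/L PFOS, against 870 to 1244 CPM in the controls, and that of 24 ionocyte genes was 975 to 1145 CPM against 870 to 950 CPM. That of 29 liver genes was 756 to 1216 CPM against 245 to 656 CPM, and that of 21 brain endothelial genes was 324 to 357 CPM against 263 to 281 CPM. The sum of the tight junction partners lay lower, at 1354 to 1415 CPM against 1428 to 1483 CPM. Their mean log2 CPM, in which each gene weighs the same, lay higher, at 3.57 to 3.73 against 3.31 to 3.53. The mean log2 CPM of the ionocyte genes overlapped, at 2.91 to 3.84 against 3.05 to 3.18. The direction for the partners and the separation for the ionocyte genes thus depend on the measure. The sum of 29 epidermal genes overlapped, at 10008 to 18804 CPM against 12491 to 14318 CPM. The part of these tissues in the claudin levels was not tested.

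Higher PFOS concentrations share these controls. The claudin medians were 0.34, 0.15 and 0.25 log2 units at 0.1, 1 and 5 mg/L, with 29, 26 and 28 claudins above 0. Non-overlapping higher claudins numbered 4 at each of the 3 concentrations, against 15.0%, 8.7% and 11.1% of all genes. Lower ones numbered 1, 2 and 1, against 14.5%, 7.85% and 9.56%.

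PFECHS gave no called claudin with edgeR at any concentration or along the trend, and 0.0% of all genes were called in each. DESeq2 called none at any concentration or along the trend. Unadjusted p-values under 0.05 were found for 1, 0, 0 and 1 claudins from 0.001 to 5 mg/L and for none along the trend, against 3.77%, 3.72%, 1.87%, 7.03% and 3.4% of all genes. At 0.001 mg/L this was cldnj, a claudin of the zebrafish inner ear, with 2.34, 3.198 and 3.504 CPM against 3.88, 3.97 and 4.08 CPM. Its difference was -0.40 ± 0.19 log2 units (unadjusted p = 0.0429, adjusted p = 0.963), although the groups did not overlap.

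At 5 mg/L PFECHS, cldn29 had 7.14, 8.21 and 6.92 CPM against 6.53, 3.40 and 3.90 CPM in the controls, a difference of 0.69 log2 units (0.01 to 1.36) with unadjusted p = 0.0457 and adjusted p = 0.707. It was the 1 claudin higher in all 3 exposed libraries there, against 11.4% of all genes, and none was lower in all 3, against 11.1%. cldn7a had 39.3, 48.2 and 45.1 CPM against 44.2, 30.1 and 36.3 CPM, a difference of 0.26 (-0.25 to 0.78). CLDN5 (ENSDARG00000014059) differed by -0.11 (-0.45 to 0.23) and CLDN11 (ENSDARG00000020031) by 0.36 (-0.35 to 1.07), with overlapping groups in CLDN5 and CLDN11 alike.

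At 0.1 mg/L PFECHS, 8 claudins (22.2%) were higher in all 3 exposed libraries than in all 3 controls, against 9.14% of all genes, and 1, cldnj, was lower, against 10.1%. cldn15la was one of the 8, with 29.9, 31.7 and 28.0 CPM against 21.8, 15.2 and 8.79 CPM, a difference of 0.97 ± 0.69 log2 units (adjusted p = 0.853). The summed enterocyte level was 1233 to 1438 CPM against 640 to 1252 CPM in the PFECHS controls, with an overlap of the lowest exposed and the highest control library. The mean log2 CPM of the enterocyte genes did not overlap, at 3.96 to 4.17 against 2.86 to 3.87. Their separation thus depends on the measure. The main axis divided these groups too, with scores of -7.08, -0.351 and 17.7 against -17.8, -37.2 and -62.7 in the controls. Since many claudins moved together, the 8 are not separate signs. The part of the enterocyte genes or of the main axis in the result was not tested.

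The compounds were compared at matched concentrations as the difference between their responses, each response being taken from its own control, in 3 pairs at 4 concentrations, or 12 comparisons. PFOS and PFECHS are sulphonates, with a chain in PFOS and a ring in PFECHS, and FBSA is a sulphonamide with a shorter chain. At 5 mg/L, 2 of 36 claudins were called between FBSA and PFOS (5.56%, against 4.92% of all genes and 2.61% called higher), and 2 between FBSA and PFECHS (5.56%, against 9.17% and 4.35%). In both pairs they were cldn7a and CLDN5 (ENSDARG00000014059), each with the greater response to FBSA.

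The response of cldn7a to FBSA exceeded that to PFOS by 1.37 ± 0.36 log2 units (0.64 to 2.101, adjusted p = 0.0283) and that to PFECHS by 1.35 ± 0.36 (0.62 to 2.08, adjusted p = 0.0196). For CLDN5 the excess was 0.82 ± 0.24 over PFOS (0.34 to 1.30, adjusted p = 0.0409) and 0.82 ± 0.24 over PFECHS (0.34 to 1.30, adjusted p = 0.0283), all with edgeR over all genes. Both comparisons use the same FBSA libraries. For CLDN11 (ENSDARG00000020031) the excess of 1.18 over PFOS (0.18 to 2.17) and 1.13 over PFECHS (0.13 to 2.13) was not called (adjusted p = 0.136 and 0.132). cldn33b had the largest difference in the other direction, -2.30 ± 0.73 against PFOS (adjusted p = 0.0582).

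These calls between compounds rested on few libraries. For FBSA minus PFOS none was left without PFOS control replicate 1 or 2, FBSA control replicate 2, or replicate 3 at 5 mg/L of either compound, and 1 was left without PFOS control replicate 3 or PFOS replicate 1 or 2 at 5 mg/L. For FBSA minus PFECHS none was left without PFECHS control replicate 1, FBSA control replicate 2 or FBSA replicate 3 at 5 mg/L. There 1 was left without PFECHS control replicate 2 or PFECHS replicate 3 at 5 mg/L, and 4 were called without FBSA replicate 2 at 5 mg/L. For these fits too, the share of all genes called is not given here.

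Between PFOS and PFECHS no claudin was called at 5 mg/L and 0.0% of all genes were, with no claudin and 1.06% of all genes at an unadjusted p under 0.05. The difference of PFOS minus PFECHS was -0.02 log2 units for cldn7a (-0.75 to 0.71), -0.04 for CLDN11 (-1.04 to 0.95) and under 0.01 in size for CLDN5 (-0.48 to 0.48). The intervals do not show that the 2 compounds act alike on these genes. DESeq2 called none either.

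At 0.001, 0.1 and 1 mg/L no claudin was called between any 2 compounds (0.0% of all genes in each), by edgeR or by DESeq2. Of the 36, unadjusted p-values under 0.05 were found for 0, 0 and 2 between FBSA and PFOS (4.86%, 4.97% and 8.26% of all genes), for 0, 0 and 1 between FBSA and PFECHS (3.0%, 2.06% and 3.45%) and for 1, 1 and 0 between PFOS and PFECHS (0.947%, 1.4% and 1.29%). cldn7a was among them at 1 mg/L, where the response to FBSA exceeded that to PFOS by 0.82 (0.09 to 1.55, adjusted p = 0.569) and that to PFECHS by 0.91 (0.18 to 1.64).

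The solvent controls of the 3 series received no compound and were compared as a background. No claudin was called between them by edgeR, against 34 genes (0.15%) for FBSA minus PFOS and 0.0% for the other pairs, and 1, 1 and 0 claudins had an unadjusted p under 0.05 for FBSA minus PFOS, FBSA minus PFECHS and PFOS minus PFECHS. Over all genes 18.3%, 22.8% and 1.01% had one, so the FBSA controls stood apart from both other control groups more than these did from each other. cldnj was 0.55 log2 units higher in the FBSA than in the PFOS controls (adjusted p = 0.138), and CLDN19 was 1.44 higher in the FBSA than in the PFECHS controls (adjusted p = 0.174). For cldn7a the FBSA controls differed by -0.12 (-0.64 to 0.39) from the PFOS controls and by -0.29 (-0.81 to 0.22) from the PFECHS controls. The shift of cldn7a at 5 mg/L FBSA was larger than either. CLDN5 (ENSDARG00000014059) differed by -0.30 (-0.64 to 0.03) and -0.16 (-0.50 to 0.18) in the same order, beside its rise of 0.71. CLDN12 differed by -0.23 and -0.21, beside 0.45. CLDN11 (ENSDARG00000020031) differed by -0.19 and 0.13, beside 1.49. The fitted levels of cldn7a, CLDN5 and CLDN12 were thus lower in the FBSA controls than in both other groups. The part of this in the rises was not tested.

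The order of libraries in the deposited table adds a further limit. Its last 11 columns hold FBSA control replicates 2 and 3 but none of the 3 FBSA libraries at 5 mg/L, and the labels do not say what the order stands for. Within the first 33 columns the FBSA comparison has 1 control. There cldn7a had 64.5, 96.1 and 115 CPM against 31.8 CPM, CLDN5 18.5, 21.2 and 25.4 CPM against 13.5 CPM, and CLDN11 11.6, 40.1 and 50.5 CPM against 13.5 CPM. With a term for these last columns the calls of cldn7a, CLDN5 and CLDN11 at 5 mg/L FBSA stayed, at 1.40, 0.55 and 1.18 log2 units. cldn33b was then called lower at 5 mg/L FBSA (-1.66, adjusted p = 0.0490) and in FBSA minus PFOS (-2.59, 0.0454). Both calls of FBSA minus PFOS and both of FBSA minus PFECHS reported above were lost, with adjusted p-values of 0.0649 and 0.0667 for cldn7a and 0.0953 and 0.0897 for CLDN5.

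Claudins varied more between libraries of 1 group than most genes. Their within-group SD of log2 CPM, pooled over the 15 groups of all 3 series, was above the median of all genes, 0.314, in 30 of 36. It was above the 90th percentile of all genes, 0.789, in 11 of 36 (30.6%). The 11 include the scarce cldn26 and CLDN10 (ENSDARG00000058937), with means of 1.51 and 5.59 deposited counts per library. The comparison with all genes was not matched for count level. The widest was cldnf, at 0.259 to 10.5 CPM over the 44 libraries, with a within-group SD of 1.13. cldni followed with 7.38 to 147 CPM and an SD of 1.03, and cldne with 3.36 to 84.9 CPM and an SD of 1.01. cldnf is outside the named set and is given because it was the widest.

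The narrowest was CLDN11 of ENSDARG00000030723, at 14.8 to 22.4 CPM and an SD of 0.124, a smaller spread than in all but 4.18% of genes. CLDN5 of ENSDARG00000014059 had an SD of 0.197, CLDN12 of 0.200 and cldnj of 0.208, all under the median of all genes. cldn7a stood at 0.320, close to that median. CLDN11 of ENSDARG00000020031, at 0.452, was above it.

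**Figure D3:**
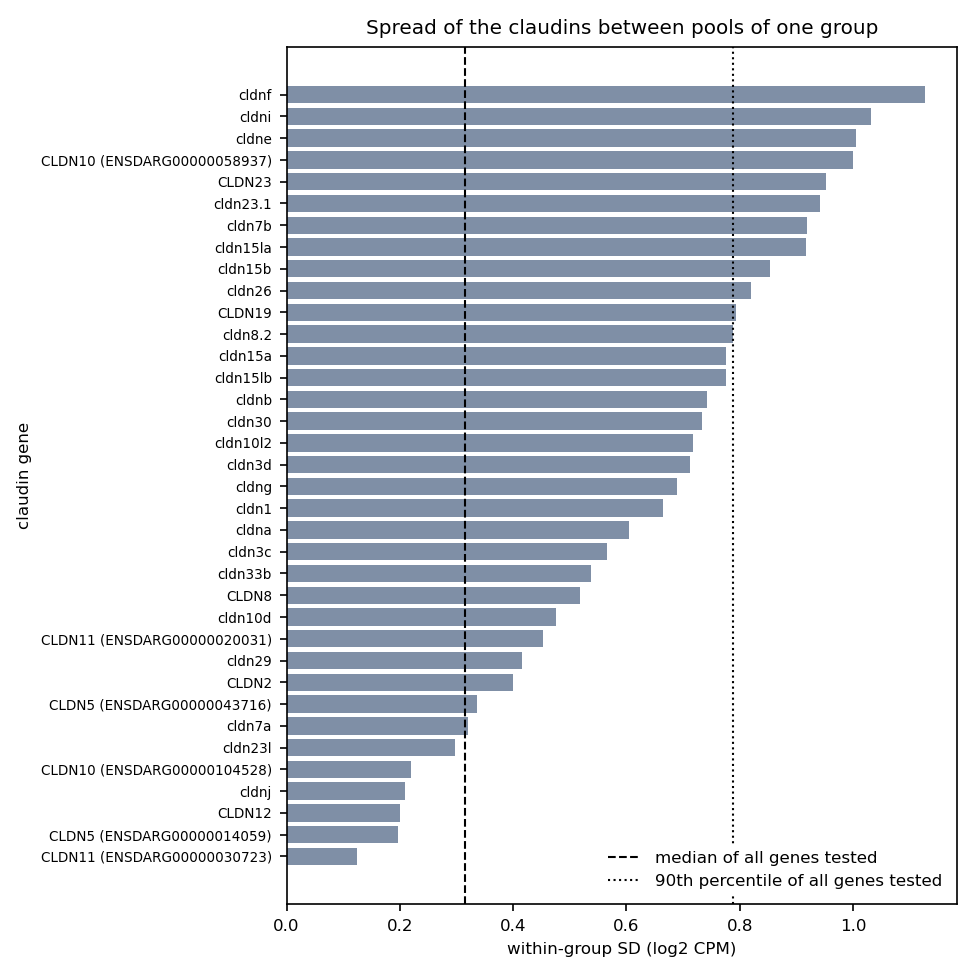
Within-group standard deviation of log2 CPM for each of the 36 tested claudins, with lines for the median (0.314) and the 90th percentile (0.789) of all genes tested. The widest is cldnf at 1.13 and the narrowest CLDN11 (ENSDARG00000030723) at 0.124.

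The wide spread was shared by many claudins. cldni (ENSDARG00000054616), with a mean of 1829 deposited counts per library, was taken as the measure after the values had been seen. It had 83.8, 52.0 and 7.46 CPM in the FBSA controls, 121, 12.9 and 20.2 CPM at 0.001 mg/L, 147 and 51.2 CPM at 0.1 mg/L, 99.2, 7.38 and 42.5 CPM at 1 mg/L and 27.7, 116 and 46.3 CPM at 5 mg/L. High and low libraries were thus found side by side in the FBSA control group and in the exposed FBSA groups. In the other series cldni had 58.1, 44.4 and 60.2 CPM in the PFOS controls and 76.7, 60.9 and 25.8 CPM in the PFECHS controls. Its lowest and its highest library were both FBSA libraries, as were those of cldnf and cldne.

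cldne went with it almost without exception. It had 47.6, 25.1 and 3.36 CPM in the controls, 75.0, 6.89 and 8.39 CPM at 0.001 mg/L, 84.9 and 26.5 CPM at 0.1 mg/L, 45.8, 5.74 and 22.0 CPM at 1 mg/L and 14.5, 46.1 and 21.9 CPM at 5 mg/L FBSA. Over all 44 libraries its log2 level had r = 0.977 and rho = 0.966 with that of cldni. Both permutation p-values were 1e-05, the smallest that 100000 resamples can give, and 2.19e-05 and 2.5e-05 after adjustment over 35 relations. Without the 2 libraries farthest from the median of cldni r was 0.973, within the first 33 columns 0.964, within the last 11 columns 0.981, and for the deviations from group means 0.982.

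Of 35 claudins set against cldni, 7 had r above 0.9, 14 above 0.7 and 19 above 0.5. An adjusted permutation p under 0.05 was found for 27. No such count was made over all genes, so these counts do not set claudins apart from other genes. cldn7b had r = 0.967 (rho 0.955), cldnb 0.921 (rho 0.923) and cldn3c 0.921 (rho 0.931). The values within the first 33 columns were 0.967, 0.931 and 0.948, and those within the last 11 were 0.974, 0.965 and 0.954. cldn1, whose mammalian relative is needed for the barrier of the skin, had r = 0.841, and cldn15la had 0.728. The relation describes the libraries and does not show a control of one gene by another. Its cause was not tested.

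Of the claudins that rose with FBSA, none had r above 0.7. cldn7a had r = 0.122 with cldni (adjusted p = 0.467), CLDN5 of ENSDARG00000014059 had 0.259 (0.102), CLDN11 of ENSDARG00000020031 had 0.423 (0.00857), and its partner ENSDARG00000030723 had 0.036. CLDN12 had 0.565, but 0.051 within the first 33 columns. In the other direction 3 claudins had r under -0.4, namely CLDN8 (-0.488), CLDN10 of ENSDARG00000104528 (-0.456) and CLDN2 (-0.430). That of CLDN8 was -0.007 within the last 11 columns, while that of CLDN2 was -0.672 within the first 33 and -0.751 within the last 11.

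**Figure D4:**
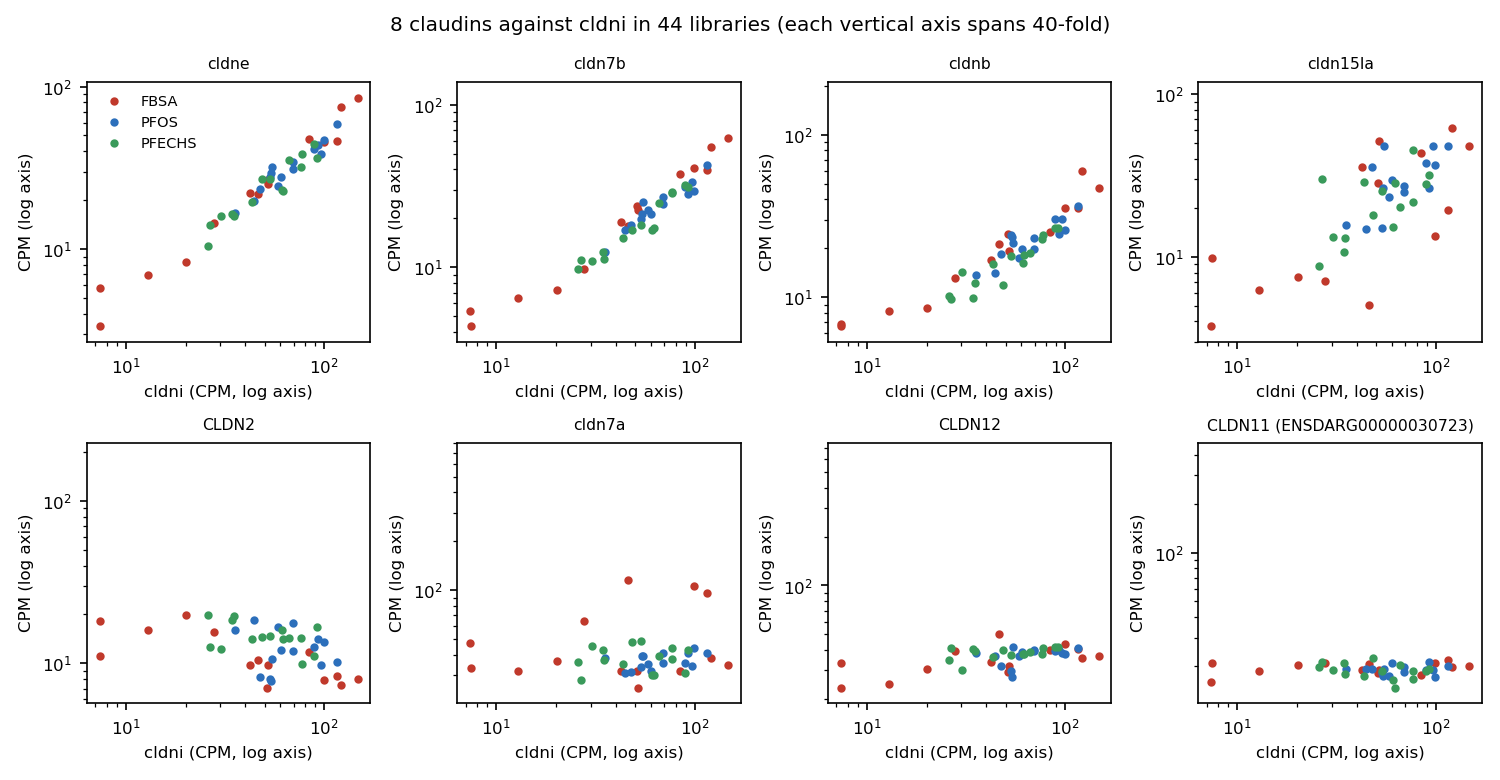
CPM of 8 claudins against those of cldni on log axes, with 1 point per library, coloured by compound. cldne lies along a line with r = 0.977, whereas cldn7a shows no slope (r = 0.122) and its highest libraries are FBSA libraries.

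Some claudins moved with the mean levels of tissue lists, though not with a single list alone. In 30 relations between 6 claudins and the mean levels of 5 tissue lists, cldni had r = 0.876 (rho 0.865) with 24 ionocyte genes and 0.845 (rho 0.753) with 29 epidermal genes. The first was 0.901 and 0.957 within the first 33 and the last 11 columns, and the second 0.931 and 0.980. cldn15la had r = 0.960 (rho 0.961) with 33 enterocyte genes, 0.948 without the 2 farthest libraries, 0.969 and 0.961 within the first 33 and the last 11 columns, and 0.957 to 0.960 within each compound. Each of these had an adjusted permutation p of 3.33e-05 for r, and no claudin is on these 3 lists. cldn15la also had r = 0.778 with the epidermal, 0.805 with the ionocyte, 0.840 with the liver and 0.766 with the lens genes. cldni had 0.659 with the enterocyte, 0.621 with the liver and 0.511 with the lens genes. CLDN2 had negative r with all 5 lists, at -0.642 to -0.338. CLDN5 of ENSDARG00000014059 had no positive r, at -0.361 to -0.049. CLDN11 of ENSDARG00000020031 had r of -0.090 to 0.324 and rho of 0.297 to 0.631 with the 5 lists. Its highest was with the liver genes, at r = 0.324 (rho 0.631, adjusted permutation p = 0.0505 and 5.45e-05). Within compounds that r was 0.200 for FBSA, 0.712 for PFOS and 0.677 for PFECHS.

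At 5 mg/L FBSA the enterocyte genes summed to 413 to 725 CPM against 678 to 2084 CPM in the controls, with an overlap of the highest exposed and the lowest control library. Of 33, 12 were called lower and 1 higher, against 5.44% and 5.79% of all genes, and their median was -1.70 log2 units. cldn15la had a fitted difference of -1.73 in the same libraries, and the part of intestinal RNA in it was not tested. The epidermal genes summed to 10218 to 14208 CPM against 7138 to 16361 CPM, and the ionocyte genes to 802 to 924 CPM against 750 to 1106 CPM. The 21 brain endothelial genes summed to 243 to 373 CPM against 222 to 361 CPM, so these overlapped as well. cldn7a had r = -0.450 (rho -0.248, adjusted permutation p = 0.00508 and 0.139) with the enterocyte genes, and -0.288 without the 2 farthest libraries. Within compounds this r was -0.555 for FBSA, 0.327 for PFOS and -0.057 for PFECHS. The strongest relation of cldn7a was with 25 lens genes, at r = -0.538 (rho -0.377, adjusted permutation p = 0.000854 and 0.0186). It was -0.421 without the 2 farthest libraries, -0.578 within the first 33 and -0.600 within the last 11 columns. Within compounds it was -0.605 for FBSA, 0.112 for PFOS and -0.339 for PFECHS. The permutations shuffled all 44 libraries without regard to their groups. The lens list summed to 2166 to 3324 CPM at 5 mg/L FBSA against 5217 to 9621 CPM in the controls, with no overlap. The part of lens RNA in the level of cldn7a was not tested.

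A list of brain endothelial genes was set beside CLDN5. Of 21, none was called higher at 5 mg/L FBSA, against 5.79% of all genes, and 2 were called lower, against 5.44%. The 2 were the glucose transporter SLC2A1 (-1.93 ± 0.26, adjusted p = 0.000345, edgeR) and the efflux transporter ABCB4 (-1.70 ± 0.55, adjusted p = 0.0423). With 21 genes these counts cannot be set apart from those shares. The median of the 21 was -0.05. The other CLDN5 gene, ENSDARG00000043716, stood at 3.65 to 8.96 CPM against 5.72 to 10.1 CPM in the controls, a difference of -0.50 ± 0.27 (adjusted p = 0.218).

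When the score of each library on the main axis was added to the fit, 14 claudins were called at 5 mg/L FBSA, all higher. Over all genes 19.9% were called in either direction. The 3 called before kept their calls, with cldn7a at 1.65, CLDN11 at 1.76 and CLDN5 at 0.73 log2 units. Joining them were CLDN12 at 0.56, cldni at 1.66, cldne at 1.52, cldnb at 1.32, cldn7b at 1.19, cldn1 at 1.10, cldn3c at 0.75 and cldn29 at 0.74, among others. The median claudin moved to 0.56 log2 units under the term, and some uncalled differences turned their sign, such as CLDN19, at 0.47 with the term and -0.35 without it, and cldn15a, at 0.43 and -0.32. The axis was computed from the same libraries, so exposure can enter it, and these 14 are given as values under that term alone.

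**Figure D5:**
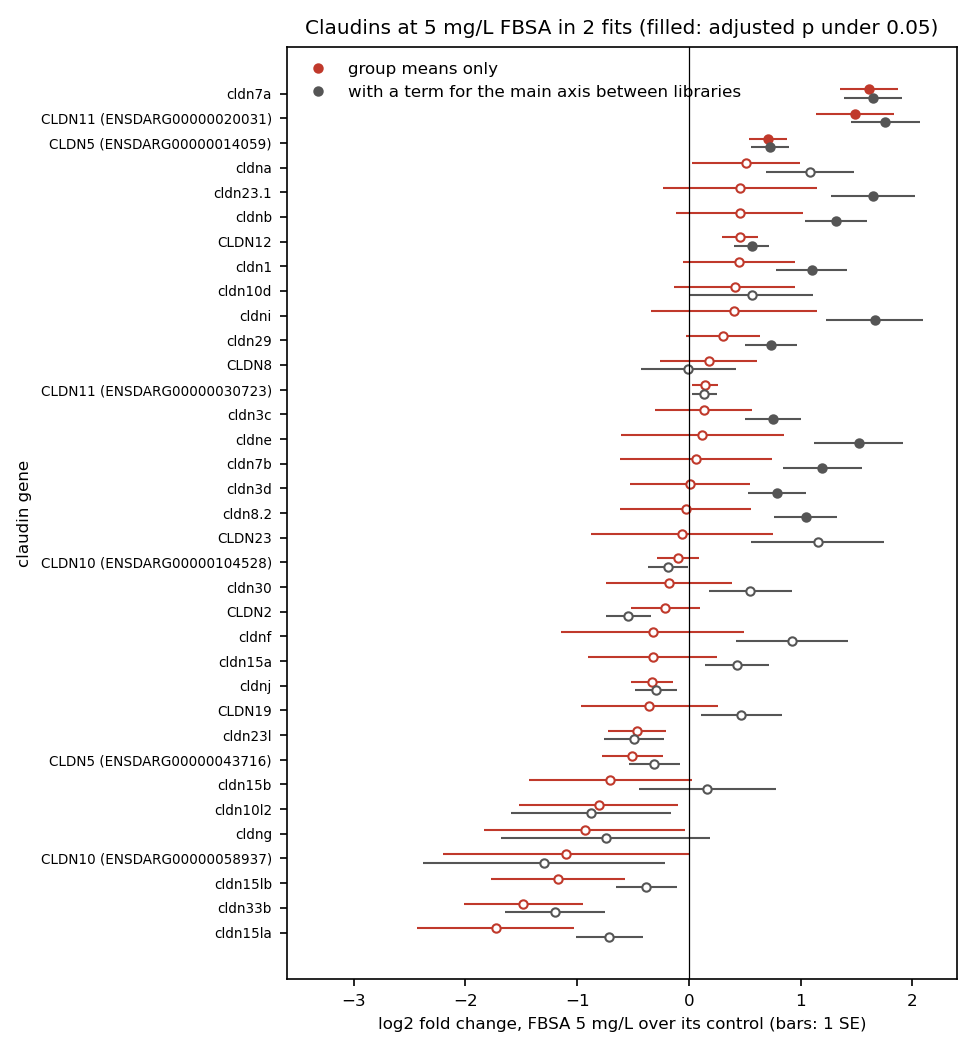
Log2 difference at 5 mg/L FBSA for 35 tested claudins (cldn26 is not drawn) with and without a term for the main axis between libraries, with filled points for adjusted p under 0.05. Under the term 14 claudins are called higher, among them cldni at 1.66, while cldn7a stays near its value of 1.61.

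Claudin genes often lie beside each other, and neighbours were looked up in RefSeq's annotation of the zebrafish assembly GRCz12tu. cldnj, cldne, cldnf and cldna form a run of 4. cldne, cldnf and cldna had r = 0.977, 0.959 and 0.744 with cldni, while cldnj, in the same run, had -0.225 and a narrow spread. In a run of 7 with 5 members, cldn3c, cldn3d, cldnb, cldn29 and cldn30 had 0.921, 0.837, 0.921, 0.661 and 0.759.

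Other tight junction proteins were also tested at 5 mg/L FBSA. Of 52 genes for scaffold, polarity and junctional adhesion proteins that were matched from 58 symbols, 4 were called higher and 6 lower, against 5.79% and 5.44% of all genes, with a median of -0.04. Among those higher were pard6a, a subunit of the Par polarity complex (0.84 ± 0.19, adjusted p = 0.00634), ILDR2, a protein of tricellular junctions (0.64 ± 0.15, 0.00683), and the junctional adhesion molecule JAM3 of ENSDARG00000114589 (0.69 ± 0.21, 0.0304). Among those lower were the scaffold MAGI3 (-1.01 ± 0.25, 0.0113), pard6b (-1.31 ± 0.34, 0.0143), both genes named PALS1, a Crumbs complex scaffold (-0.65 ± 0.18 and -1.14 ± 0.32), and SYMPK, which also serves mRNA processing (-0.36 ± 0.11, 0.0300). Without FBSA replicate 3 at 5 mg/L none of the 52 was called, and without FBSA control replicate 2 only 1 was. The share of all genes called in these fits is not given here, so the loss is not shown to be particular to these genes.

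Of 28 genes of adherens junctions and desmosomes, 2 rose at 5 mg/L FBSA, against 5.79% of all genes called higher, and none fell. The 2 were AFDN (0.44 ± 0.10) and CDH2 (0.43 ± 0.11). For the 52 tight junction partners the medians at 5 mg/L PFOS and PFECHS were 0.12 and 0.03 log2 units, and edgeR called none.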

How the data were processed

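RNA from pools of whole embryos was sequenced by the authors. The deposited table, made by the authors, holds an expected count per gene and library, which is estimated and need not be whole: 54.1% to 79.8% of the values in a library were not whole. Per the submitters' processing notes, FastQC, MultiQC and Trimmomatic were used. For the aligner, the counter and the genome build: not given in the sources used here.

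Counts were rounded and tested in 1 edgeR fit (version 4.0.16, with limma 3.58.1 and R 4.3.3) of 15 group means over 44 libraries, with TMM scaling, filterByExpr and the quasi-likelihood F test, which left 22703 genes and 29 residual degrees of freedom. Every p was adjusted over all genes tested, at a threshold of 0.05. DESeq2 1.42.0 was an alternative. The step was tested on simulated data. Library totals were 24478738 to 36533705 counts. For correlations log2 CPM used a prior count of 2, and intervals cover only the spread between libraries.

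Symbols matched 23598 of 25859 Ensembl ids. The members, gene lists and rule for named genes were chosen with earlier results of these data known. Named are claudins called in any comparison, the 5 with the smallest p at 5 mg/L of each compound, the 3 with the smallest p at each lower concentration and a list of well-studied claudins. cldnf, cldn3d and cldn30 are outside this rule and were named after their values were seen. Libraries were not paired by replicate number in the main fit. The table's headers spell FBSA as FSBA.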

Additional observations from a re-analysis of the deposited data

Results flagged for a closer look

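The difference between compounds was itself called for 2 claudins at 5 mg/L. For cldn7a, the response to FBSA exceeded that to PFOS by 1.37 and that to PFECHS by 1.35 on the log2 scale. For CLDN5 (ENSDARG00000014059) the excess was 0.82 over PFOS and 0.82 over PFECHS. What marks these 4 values is that each is a tested difference between 2 effects of the same kind. All 4 lost their call with a term for the last 11 columns of the table, and each lost it in some fits that left out 1 library.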

How the results depend on the processing

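At 5 mg/L FBSA the count of 3 called claudins was 5 with a replicate block and 5 with DESeq2 (each adding CLDN12 higher and cldn33b lower). It was 14 with the main axis as a term and 0 with only the FBSA libraries. Over all genes, 12.7%, 15.3%, 19.9% and 0.0% were called in either direction in these settings, in the same order. When a library was left out the count was 1 to 8, and for such fits the share of all genes is not given here. Correlations of same-numbered deviations were mixed, from -0.408 to 0.610, so the main fit did not pair libraries by replicate number. Along the FBSA trend 4 became 14 with the main axis (20.5% of all genes) and 0 with only the FBSA libraries (0.0%). It was 3 to 6 with a library left out. For FBSA minus PFOS 2 became 1 with the column term (a different gene, cldn33b, lower), against 5.14% of all genes. It was 8 with the main axis (7.87%) and 0 with only the FBSA and PFOS libraries (0 to 3 with a library left out). For FBSA minus PFECHS 2 became 0 with the column term (7.39%) and 11 with the main axis (13.8%). It was 0 with only the FBSA and PFECHS libraries (0 to 4). Below 5 mg/L 0 became 1 with DESeq2 (0 to 1), and between controls 0 became 1 with the main axis, cldn8.2. For the 10 tight junction partners, counted under these settings after seeing the data, the values were 5 with the column term and 24 with the main axis. With only the FBSA libraries the value was 0 (0 to 12 with a library left out). The shares of all genes were 9.80%, 19.9% and 0.0%. The median claudin at 5 mg/L FBSA ranged from -0.40 to 0.32 when a library was left out, and was 0.26 with the replicate block. The counts at 5 mg/L and along the trends of PFOS and PFECHS stayed 0 (0 to 0 when a library was left out), as did those between PFOS and PFECHS and between compounds at lower concentrations. The cause of these shifts was not tested. No called value turned its sign under these settings, but uncalled ones did with the main axis: cldn8.2 was 1.04 and called with it and -0.03 without it at 5 mg/L FBSA. The depth does not bear folds for cldn26, cldng or cldn10d, which averaged 1.51, 5.27 and 6.5 counts.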
